A study of Mus musculus with 6 samples.

Results

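The 10 genes described here encode the MHC class I presentation machinery and the ubiquitin-like protein FAT10, and they were followed in newborn mouse intestine after NECA or DMSO. They are the light chain B2m, the heavy chains H2-K1 and H2-D1, the peptide-loading genes Tap1, Tap2 and Tapbp, the immunoproteasome subunits Psmb8 and Psmb9, the transcriptional activator Nlrc5, and Ubd, which encodes FAT10. Members were taken by gene name from a table of 54532 genes. Each name had 1 row, so the rule of keeping the row with most counts removed nothing, and all 10 passed the filter on low counts that left 15847 tested genes. The members were chosen by name, with earlier counts and fold changes of NECA against DMSO in these libraries known, so the differences of these genes between the groups are given as a description.

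All libraries came from intestine of newborn C57BL/6 mice, an inbred strain of the H2b haplotype. In the NECA group the tissue had 5 days of NECA, an adenosine analogue that activates several adenosine receptor subtypes, and in the DMSO group it had the solvent used as vehicle. Each group held 3 libraries. The labels give neither the bowel segment, the route and dose, nor whether the 3 libraries came from separate animals, so the p-values measure the spread between libraries, part of which may be technical. The title of the study names necrotizing enterocolitis, an inflammatory bowel disease of newborns, and suppressor cells of the myeloid line as its subject, with adenosine as the agent.

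Class I molecules display peptides of proteins made inside the cell to CD8 T cells. The proteasome cuts the proteins, the TAP transporter moves the peptides into the endoplasmic reticulum, tapasin (Tapbp) bridges TAP and the empty class I molecule, and a heavy chain folds with B2m around the peptide. Interferon-gamma raises most of these genes through Irf1 and Nlrc5, exchanges constitutive for immunoproteasome subunits, and, with tumour necrosis factor, raises Ubd, whose product tags proteins for the proteasome. In the suckling rodent intestine B2m also pairs with Fcgrt, the receptor that takes up maternal antibody from milk.

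Promoters of 5 of the members are shown because they hold the regulatory letters that the class I genes share, and because Tap1 and Psmb9 start from 1 common stretch. Each is a window of 300 bases from 250 before to 50 after the RefSeq start on GRCm38.p6, 5′ to 3′ on the gene's strand. Capitals mark matches on either strand to the interferon-stimulated response element (GAAA, 2 free bases, GAAA), the gamma-activated site (TTCNNNGAA), the kappaB motif, the Y box core (ATTGG) or the cAMP-response site core (TGACG). The windows lie at chr2:122147437-122147736 on the plus strand (B2m), chr17:34000284-34000583 on the minus strand (H2-K1), and chr17:35262844-35263143 (H2-D1), chr17:34187306-34187605 (Tap1) and chr17:37193642-37193941 (Ubd), all 3 on the plus strand.
B2m: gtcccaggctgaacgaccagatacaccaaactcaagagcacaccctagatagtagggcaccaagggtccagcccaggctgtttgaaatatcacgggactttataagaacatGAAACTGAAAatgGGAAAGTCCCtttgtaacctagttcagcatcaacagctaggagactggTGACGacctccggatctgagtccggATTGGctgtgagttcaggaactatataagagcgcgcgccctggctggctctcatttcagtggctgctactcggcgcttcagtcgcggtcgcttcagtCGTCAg
H2-K1: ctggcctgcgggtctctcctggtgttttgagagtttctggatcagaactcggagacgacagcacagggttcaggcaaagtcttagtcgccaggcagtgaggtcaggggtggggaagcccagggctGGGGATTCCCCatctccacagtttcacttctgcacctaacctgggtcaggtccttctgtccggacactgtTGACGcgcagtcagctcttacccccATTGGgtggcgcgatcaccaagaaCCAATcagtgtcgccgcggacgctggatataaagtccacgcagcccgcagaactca
H2-D1: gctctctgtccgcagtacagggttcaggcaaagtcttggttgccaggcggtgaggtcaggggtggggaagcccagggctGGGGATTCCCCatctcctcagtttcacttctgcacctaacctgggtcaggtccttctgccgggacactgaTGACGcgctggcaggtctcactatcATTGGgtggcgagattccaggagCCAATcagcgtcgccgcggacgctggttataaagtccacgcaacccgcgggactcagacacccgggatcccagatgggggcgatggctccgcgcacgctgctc
Tap1: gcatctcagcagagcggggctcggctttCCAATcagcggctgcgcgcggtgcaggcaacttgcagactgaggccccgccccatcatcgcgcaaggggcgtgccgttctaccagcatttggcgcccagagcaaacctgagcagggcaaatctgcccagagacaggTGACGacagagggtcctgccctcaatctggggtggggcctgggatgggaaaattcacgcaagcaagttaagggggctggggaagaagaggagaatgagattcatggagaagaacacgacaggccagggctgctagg
Ubd: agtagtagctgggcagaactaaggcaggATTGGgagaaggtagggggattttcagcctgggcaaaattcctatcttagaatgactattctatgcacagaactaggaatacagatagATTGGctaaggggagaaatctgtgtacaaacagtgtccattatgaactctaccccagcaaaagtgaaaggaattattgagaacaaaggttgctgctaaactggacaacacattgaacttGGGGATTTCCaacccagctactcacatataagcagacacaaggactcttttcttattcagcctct

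The kappaB motif was found in the windows of B2m, H2-K1, H2-D1 and Ubd, 4 of the 8 members in the promoter table, where 8.22% of the 27025 promoters searched hold it. In H2-K1 and H2-D1 it is the same run, GGGGATTCCCC, in which 2 matches overlap. B2m alone matched the letters searched for the interferon-stimulated response element (3.52% of all promoters). Psmb8 alone matched those for the gamma-activated site (8.37%). Variants of these elements that differ from the letters were not searched, so a window without a match may still hold one. A Y box core was found in 7 of the 8 members (37.8% of all promoters), and the cAMP-response site core in 5 of the 8, namely B2m, H2-K1, H2-D1, Tap1 and Psmb9 (20.7%). The Tap1 and Psmb9 windows share 275 bases, read on opposite strands. Tap2 and Nlrc5 had no entry in the table. A match describes the letters of these windows and is not a measured binding site.

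Counts summed to 15531996 to 18065078 per library. The library NECA 2 stood apart from the others: its median correlation with the other libraries, across genes, was 0.944, against 0.971 to 0.986 for the remaining libraries. Markers of proximal bowel summed to 202 CPM (counts scaled to library depth, TMM-normalised) in NECA 2, against 5023 to 5537 CPM in the other libraries. Most of that sum came from Fabp1 and Lct. All 10 proximal markers had negative log2 fold changes over the groups, and 9 of 10 without NECA 2. Ada was at 17.3, 10.9 and 24.7 CPM in NECA and 66.0, 58.6 and 43.5 CPM in DMSO, and Pdx1 at 1.87, 0.199 and 0.632 CPM in NECA and 15.7, 10.9 and 2.31 CPM in DMSO. Ada, Pdx1 and Gkn3 were lower in every NECA library, as were 7.16% of all tested genes. EdgeR called none of these 3 markers, and DESeq2 called Ada and Pdx1. The part of this difference in those of the members was not tested. Ileal markers summed to 4736 CPM in NECA 2, against 796 to 1627 CPM in the others. All 10 ileal markers had positive log2 fold changes, with a median of 1.71, and all had overlapping groups. Without NECA 2 the median was 0.393 and 2 of the 10 were lower. The part of the ileal difference in those of the members was not tested either. Mitochondrial genes took 1.31 to 3.63% of counts in NECA and 3.61 to 8.39% in DMSO, most in DMSO 2. Epithelial markers were detected in full (12 of 12). Of the 12, 10 had positive and 2 negative log2 fold changes, with a median of 0.275 (0.152 without NECA 2). They summed to 14450, 12020 and 15240 CPM in NECA and 13480, 13470 and 13810 CPM in DMSO, with overlap. Folds that leaving out NECA 2 moves by over 1.5 times are also given without it.

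Levels per transcript length were compared by the deposited FPKM (fragments scaled to gene length and to library depth). B2m was the most abundant member in all 6 libraries, at 1042 ± 453 FPKM in NECA and 2153 ± 122.5 FPKM in DMSO (SD, n = 3 each). H2-K1 and H2-D1 followed, at 343 ± 116 and 335 ± 72.1 FPKM in NECA and 587 ± 116 and 482 ± 57.6 FPKM in DMSO, and their order changed between libraries. Tapbp came next in every library. Psmb8, Psmb9 and Tap1 held the fifth to seventh places, Tap2 and Ubd the eighth and ninth, each in an order that changed between libraries, and Nlrc5 was last at 1.32 ± 1.14 FPKM in NECA and 1.39 ± 0.158 FPKM in DMSO. Averaged over the 6 libraries, B2m ranked 19th and H2-K1 80th among the 15847 tested genes by FPKM. The lengths behind the FPKM were the authors': relative to B2m, that of Psmb9 was 4.25, where the annotated principal transcripts give 1.57.

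B2m and both heavy chains were lower in every NECA library than in every DMSO library. B2m (chromosome 2, 122147686 to 122153083, GRCm38), the invariant light chain, was at 1156, 454 and 1078 CPM in NECA 1, 2 and 3 and at 1907, 1974 and 1748 CPM in DMSO 1, 2 and 3. The groups did not overlap, NECA 2 was the lowest library, and the DMSO libraries lay close together. The fitted log2 fold change was -1.07 (SE 0.36), or 52.2% lower in NECA. Without NECA 2 it was -0.74 (SE 0.16). In bulk tissue such as this, fewer cells of a type and less RNA per cell cannot be told apart.

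H2-K1 (chromosome 17, 33996017 to 34000347), the heavy chain of the K molecule, was at 1109, 555 and 1017 CPM in NECA and 1418, 1917 and 1323 CPM in DMSO. The groups did not overlap, with NECA 2 lowest and DMSO 2 highest. The log2 fold change was -0.80 (SE 0.32), and -0.54 (SE 0.20) without NECA 2. H2-D1 (chromosome 17, 35262730 to 35267499), the heavy chain of the D molecule, was at 874, 676 and 1042 CPM in NECA and 1140, 1440 and 1199 CPM in DMSO, again without overlap, with a log2 fold change of -0.54 (SE 0.24). H2-K1 and H2-D1 resemble each other and other class I genes in sequence, and how reads matching several places were counted is not given in the sources used here, so the split between them is uncertain.

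B2m was also lower in NECA relative to its heavy chains. The ratio of B2m FPKM to the summed FPKM of H2-K1 and H2-D1 was 1.76, 1.11 and 1.58 in NECA and 2.25, 1.77 and 2.09 in DMSO, with the highest NECA library just under the lowest DMSO library. The ratio of H2-K1 to H2-D1 was 1.25, 0.812 and 0.965 in NECA and 1.23, 1.32 and 1.09 in DMSO, and here the groups overlapped. Being made from the members' own values, these ratios are descriptions too.

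**Figure D1:**
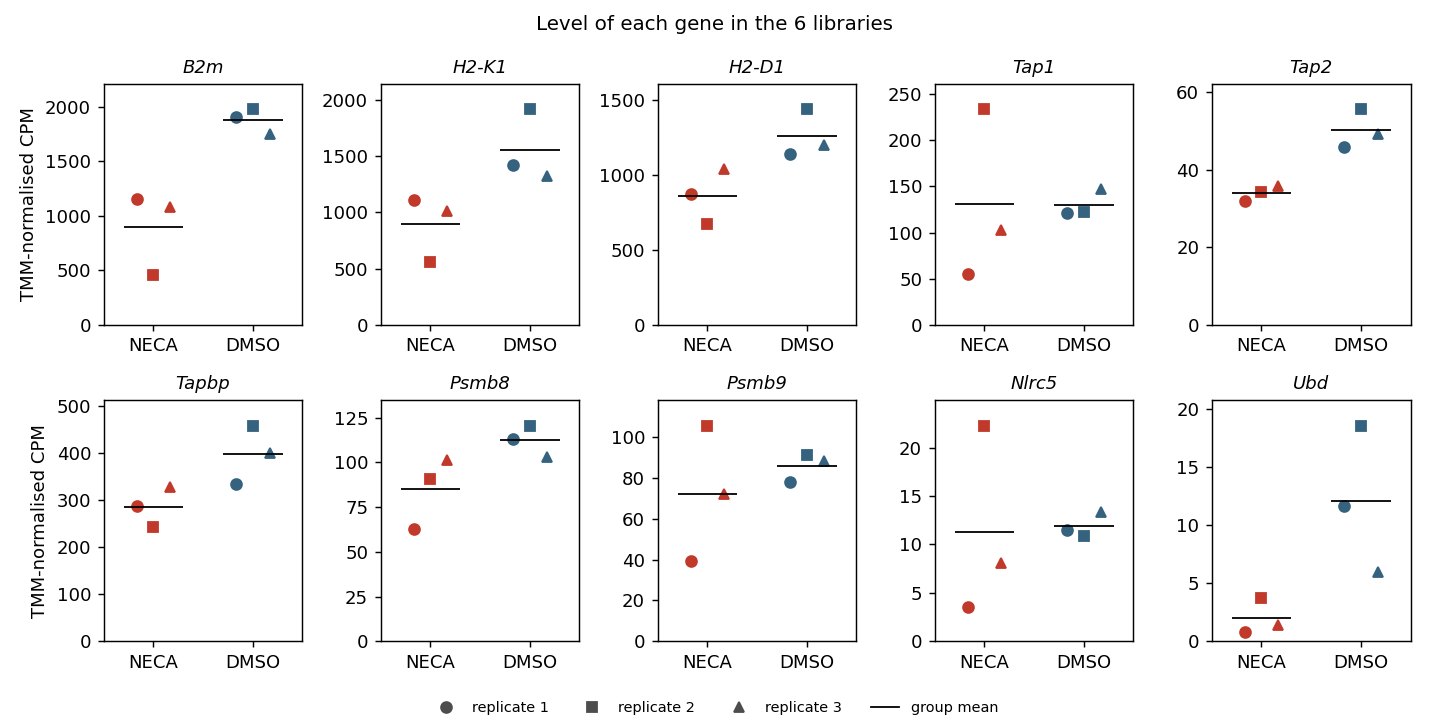
TMM-normalised CPM (y axis, from 0) of the 10 members in the 3 NECA and 3 DMSO libraries, with 1 symbol per replicate number and a line at the group mean. B2m, H2-K1, H2-D1, Tap2, Tapbp, Psmb8 and Ubd lie lower in all NECA libraries, whereas NECA replicate 2 is the highest library in Tap1, Psmb9 and Nlrc5.

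Of the peptide-loading genes, Tap2 and Tapbp were lower in all NECA libraries and Tap1 was not. Tap2 (chromosome 17, 34203527 to 34216321), a subunit of the peptide transporter, was at 31.9, 34.2 and 35.8 CPM in NECA and 45.8, 55.5 and 49.3 CPM in DMSO. It was the most even member, with NECA libraries that differed from each other by an SD of 0.0812 in log2(CPM + 1). Its log2 fold change was -0.56 (SE 0.14), and it was also -0.56 (SE 0.14) without NECA 2. Tapbp (chromosome 17, 33915899 to 33929292), which encodes tapasin, was at 288, 244 and 329 CPM in NECA and 335, 458 and 402 CPM in DMSO (log2 fold change -0.47, SE 0.20). Its groups were separated only narrowly, by NECA 3 and DMSO 1, and part of the gene (3422 bp) overlaps Zbtb22 on the same strand.

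Tap1 (chromosome 17, 34187553 to 34197225), the other transporter subunit, was at 55.6, 234 and 103 CPM in NECA and 121, 122.7 and 147 CPM in DMSO. NECA 1 was the lowest and NECA 2 the highest of all 6 libraries, so the groups overlapped. The log2 fold change was 0.0045 (SE 0.45) with all libraries and -0.72 (SE 0.25) without NECA 2. In NECA 2 the 2 subunits diverged: the ratio of Tap1 to Tap2 FPKM was 1.20, 4.72 and 1.99 in NECA and 1.83, 1.53 and 2.06 in DMSO.

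Of the immunoproteasome subunits, Psmb8 was lower in all NECA libraries and Psmb9 was not. Psmb8 (chromosome 17, 34197721 to 34201454), the inducible chymotrypsin-like subunit, was at 62.8, 90.8 and 101 CPM in NECA and 113, 120 and 103 CPM in DMSO. The groups did not overlap but NECA 3 lay close under DMSO 3, and the log2 fold change was -0.40 (SE 0.19), or -0.22 (SE 0.17) without NECA 1. Psmb9 (chromosome 17, 34181987 to 34187764), the inducible counterpart of Psmb6, was at 39.1, 105 and 71.9 CPM in NECA and 78.1, 91.1 and 88.2 CPM in DMSO. As in Tap1, NECA 1 was lowest and NECA 2 highest. Its log2 fold change was -0.25 (SE 0.32), -0.62 (SE 0.24) without NECA 2 and 0.050 (SE 0.21) without NECA 1. The annotated Tap1 and Psmb9 genes overlap by 212 bp on opposite strands, and without a stated strand setting reads from that stretch cannot be told apart.

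The inducible subunit of each catalytic pair was set against its constitutive counterpart. Psmb8 made up 21.4, 19.8 and 25.2% of the summed FPKM of Psmb8 and Psmb5 in NECA and 35.4, 31.6 and 31.0% in DMSO. The mean was 22.2 ± 2.77% in NECA and 32.6 ± 2.41% in DMSO (SD, n = 3 each). The NECA libraries lay below all DMSO libraries, and the difference of -10.5 percentage points was -9.33 without NECA 2. Psmb5 itself was at 75.8, 121 and 98.6 CPM in NECA and 68.0, 85.8 and 75.7 CPM in DMSO (log2 fold change 0.36, SE 0.19, and 0.19 without NECA 2). Psmb9 made up 13.9, 26.6 and 21% of the Psmb9 and Psmb6 pair in NECA and 25.9, 24.7 and 27.4% in DMSO, with overlap, and the difference of -5.5 points was -8.54 without NECA 2 and -2.22 without NECA 1. Psmb10, the third inducible subunit and not a member, made up 83.8, 86.4 and 86.2% of its pair with Psmb7 in NECA and 88.0, 91.7 and 87.5% in DMSO, and the difference of -3.58 points was -2.24 without DMSO 2. The height of these shares depends on the lengths used: with annotated principal transcripts the Psmb10 share was 69.6, 73.8 and 73.4% in NECA and 76.3, 83.0 and 75.5% in DMSO.

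**Figure D2:**
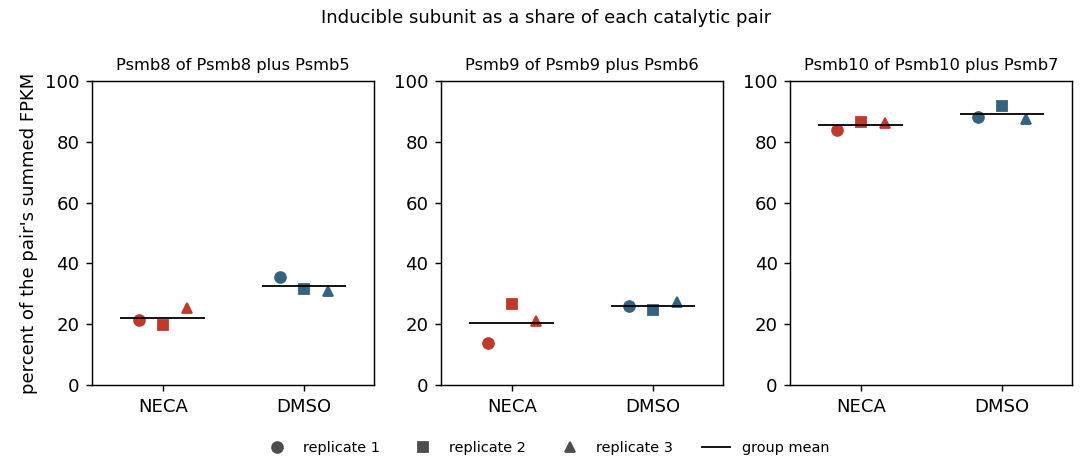
Share of the inducible subunit in the summed deposited FPKM of each catalytic pair (y axis, percent, 0 to 100) in the NECA and DMSO libraries, with 1 symbol per replicate number and a line at the group mean. The Psmb8 share lies at 19.8 to 25.2% in NECA and 31.0 to 35.4% in DMSO, while the Psmb9 shares of the groups overlap.

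Nlrc5 (chromosome 8, 94434356 to 94527272), the activator of class I promoters, had the same lowest and highest libraries as Tap1. It had 54, 446 and 140 counts in NECA and 205, 163 and 214 counts in DMSO, or 3.49, 22.2 and 8.04 CPM in NECA and 11.4, 10.9 and 13.4 CPM in DMSO. NECA 1 and NECA 3 lay below all DMSO libraries and NECA 2 above them. The log2 fold change was -0.075 (SE 0.57) with all libraries, -1.04 (SE 0.34) without NECA 2, and positive without NECA 1 (0.35), without NECA 3 (0.12) and without DMSO 3 (0.0195). Of the members, Nlrc5 and Tap1 had the second closest pair of profiles, with a root mean square difference of 0.125 in centred log2(CPM + 1) over the 6 libraries. H2-D1 and Tapbp were closest at 0.0898, B2m and Nlrc5 farthest apart at 1.18.

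Genes that drive or control class I transcription were listed together, inhibitors included. Of the 22 on the list, 14 were lower and 8 higher in NECA, with a median log2 fold change of -0.049. Those higher include the inhibitors Socs3 and Socs1 (0.41, SE 0.39, and -0.16 without NECA 2), so the counts do not describe inducers alone. Without NECA 2 the median was -0.11 and 15 of the 22 were lower. With all libraries 0 passed the edgeR test in either direction. Irf1, an interferon-induced activator, was at 148, 155 and 156 CPM in NECA and 173, 174 and 192 CPM in DMSO without overlap (log2 fold change -0.23, SE 0.14). Among the members, Psmb9, Tap1 and Nlrc5 shared their 2 lowest libraries, NECA 1 and NECA 3, and their highest, NECA 2.

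Of the same list, the interferon regulators Irf2 (-0.38, SE 0.15) and Irf7 (-0.64, SE 0.28, and -0.39 without NECA 2) and the class I and II promoter factor Rfx5 (-0.38, SE 0.17) were lower in all NECA libraries. Socs3, a feedback inhibitor of cytokine signalling, was higher in all of them (0.48, SE 0.16). Of the 22 genes on the list, 5 lay lower and 2 higher in NECA without overlap, where 7.16% and 6.49% of all tested genes did. Ciita, the class II counterpart of Nlrc5, was at 5.75, 12.2 and 6.95 CPM in NECA and 13, 6.22 and 9.44 CPM in DMSO (-0.20, SE 0.37, and -0.59 without NECA 2), with overlap.

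Ligands, receptors and receptor-bound kinases upstream lay in both directions. Ifng, which encodes interferon-gamma, had 0, 5 and 0 counts in NECA and 6, 0 and 4 counts in DMSO. It was too low to be tested, and a count of 0 allows up to 3 counts at this depth. Ifnb1, Ifnl2 and Ifnl3 had 0 counts in all libraries. Of the 21 genes listed, which include the kinases Jak1, Jak2 and Tyk2, 14 were tested, 7 higher and 7 lower in NECA, with a median log2 fold change of 0.012 and 0 past the edgeR test. Without NECA 2 the median was 0.11 and 4 were lower. The smallest p-values on this list were those of the cytokines Ltb (-1.18, SE 0.65) and Il18 (1.03, SE 0.57), followed by the receptor chains Il10rb (-0.25, SE 0.25) and Ifngr1 (0.16, SE 0.17), and all 4 had overlapping groups. Without NECA 2 they were at -1.62, 0.37, 0.0018 and 0.18.

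Ubd (chromosome 17, 37193892 to 37196095) had the largest difference among the members. It had 13, 75 and 25 counts in NECA and 208, 277 and 96 counts in DMSO, or 0.840, 3.74 and 1.44 CPM in NECA and 11.6, 18.5 and 6.00 CPM in DMSO. The groups did not overlap, but the DMSO libraries also differed among themselves, with DMSO 2 highest and DMSO 3 lowest. The log2 fold change was -2.56 (SE 0.60), or 83.1% lower in NECA. It was -3.38 (SE 0.54) without NECA 2 and -2.11 (SE 0.62) without DMSO 2.

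The order of the 6 libraries by Ubd, from NECA 1, NECA 3 and NECA 2 to DMSO 3, DMSO 1 and DMSO 2, was also their order by summed B cell markers. All 10 B cell markers were detected, and the 10 summed to 10.9, 22.5 and 17.0 CPM in NECA and 63.5, 90.3 and 23.7 CPM in DMSO. The 9 that were tested had negative log2 fold changes, with a median of -2.93 and 0 past the edgeR test. DESeq2 without NECA 2 called Cd79a, Ighm and Igkc. Of the defining markers, Pax5 was at 0 in NECA 3. The part of B cells in the Ubd difference was not tested. T, NK and innate lymphoid markers (18 of 18 detected) summed to 31.8 to 43.9 CPM in NECA and 38.3 to 47.1 CPM in DMSO, and dendritic cell markers (10 of 10) to 20.0 to 23.8 CPM in NECA and 21.7 to 28.1 CPM in DMSO, so both overlapped. Of the 14 tested T, NK and innate lymphoid markers 12 had negative log2 fold changes, with a median of -0.36 (-0.65 without NECA 2). Cd4 alone of the 14 was lower in all NECA libraries, as were 7.16% of all tested genes. Gzma (0.64, SE 0.57) and Gzmb (0.068, SE 0.47) were higher, with overlap, and were at 1.09 and 0.44 without NECA 2. Of the 8 tested dendritic cell markers 6 had negative log2 fold changes, with a median of -0.38.

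**Figure D3:**
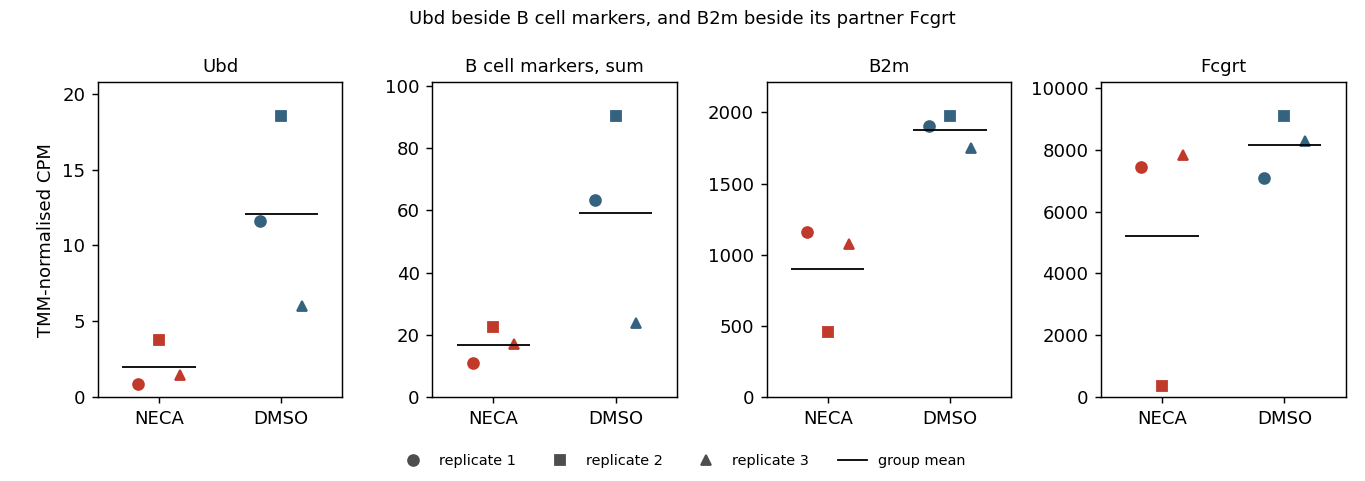
TMM-normalised CPM (y axes, from 0) of Ubd, of the 10 B cell markers summed, of B2m and of Fcgrt in the NECA and DMSO libraries, with 1 symbol per replicate number and a line at the group mean. Ubd and the B cell sum put the 6 libraries in the same order, and NECA replicate 2 is the lowest library for both B2m (454 CPM) and Fcgrt (357 CPM).

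Both enzymes that attach FAT10 had overlapping groups. Uba6, its activating enzyme, was at 14.6, 19.1 and 11.7 CPM in NECA and 11.7, 11.2 and 17.4 CPM in DMSO (log2 fold change 0.17, SE 0.26), and Ube2z, its conjugating enzyme, had a log2 fold change of 0.060 (SE 0.16). Without NECA 2 these folds were -0.026 and -0.059. Nub1, which speeds the breakdown of FAT10 and its conjugates, was at 34.3, 33.5 and 37.0 CPM in NECA and 44.8, 48.7 and 41.5 CPM in DMSO (-0.36, SE 0.13), without overlap. Of the 18 ubiquitin-like genes 10 were lower and 8 higher in NECA, with a median of -0.037 and 0 past the edgeR test. Herc6, the ISG15 ligase of mice, had the smallest p on that list, at 23.5, 13.6 and 28.2 CPM in NECA and 40.5, 45.3 and 46.0 CPM in DMSO (-1.01, SE 0.26). DESeq2 called it without NECA 2. Usp18, which removes ISG15 (-0.60, SE 0.21), was also lower in all NECA libraries, and Urm1, a ubiquitin-related modifier (0.37, SE 0.16), was higher in all of them. Of the 18 genes, 3 lay lower and 1 higher in NECA without overlap, where 7.16% and 6.49% of all tested genes did.

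Counted together, 9 of the 10 members had a negative log2 fold change, the exception being Tap1, where 51.0% of all tested genes had one. The median was -0.51 over the members and -0.0080 over all tested genes. In 7 of the 10 all NECA libraries lay below all DMSO libraries, as in 7.16% of all tested genes, and in 0 members they lay above, as in 6.49% of tested genes. Together, 13.7% of tested genes had groups that did not overlap. The count of 7 was also found with deposited FPKM (6.5% of tested genes), with DESeq2 size factors (6.7%) and with library totals (5.98%). Without NECA 2 all 10 members had a negative log2 fold change, where 52.6% of tested genes had one, and the NECA libraries lay below the DMSO libraries in all 10 members, where 12.1% of tested genes did. Since the list was drawn up with this contrast known, nothing is read from these counts.

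No member passed the test across all genes. EdgeR's quasi-likelihood test with Benjamini-Hochberg adjustment called 0 of 15847 genes (0.0%), with an adjusted p of 0.738 for 7 members, 0.817 for Psmb9, 0.974 for Nlrc5 and 0.998 for Tap1. At an unadjusted p under 0.05 it held 868 genes (5.48%), 3.03% of tested genes being lower and 2.45% higher in NECA, and 5 of the members, all lower: B2m, H2-K1, Tap2, Tapbp and Ubd. DESeq2 called 11 genes (0.0694%), among them Ubd (-2.57, SE 0.56, DESeq2 adjusted p = 0.00973) and no other member. Without NECA 2, DESeq2 called 30 of 16121 genes (0.186%), among them Ubd (-3.39, SE 0.52, adjusted p = 5.13e-07) and B2m (-0.74, SE 0.14, adjusted p = 0.00021), and edgeR called 0 (0.0%), with 5.49% of genes at an unadjusted p under 0.05.

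**Figure D4:**
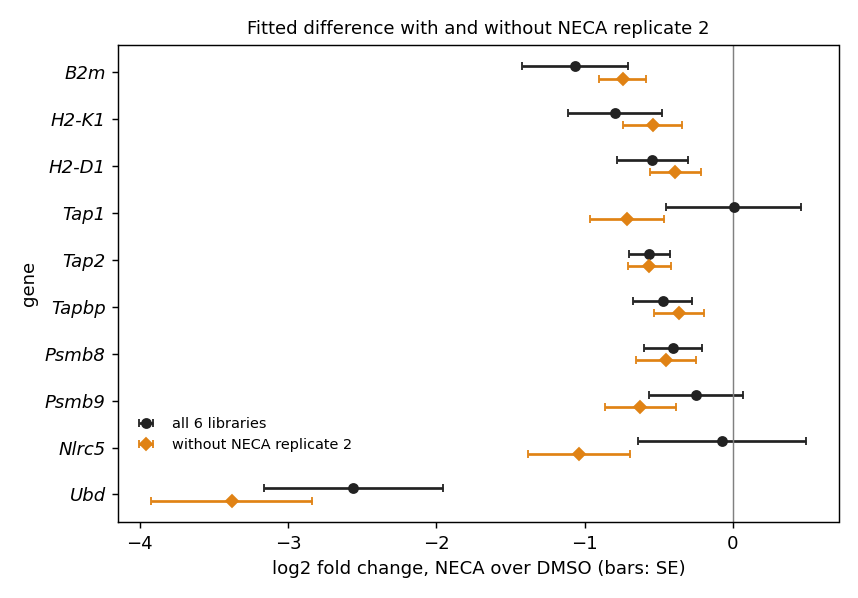
Fitted log2 fold change of NECA over DMSO (x axis) with its standard error (bars) for each member, with all 6 libraries (circles) and without NECA replicate 2 (diamonds). Tap1, Psmb9 and Nlrc5 lie at 0.0045, -0.25 and -0.075 with all libraries and at -0.72, -0.62 and -1.04 without that library, and Ubd is the farthest from 0 in both fits.

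**Figure D5:**
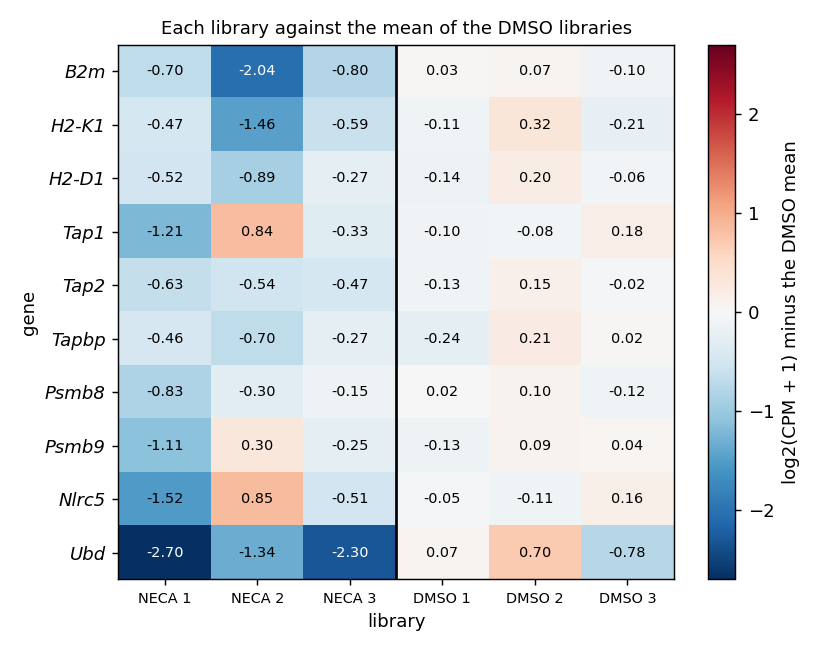
Difference of log2(CPM + 1) of each library from the mean of the DMSO libraries for each member (rows), with NECA libraries left of the line and DMSO libraries right of it. NECA 2 is the lowest library for B2m (-2.04) and H2-K1 (-1.46) and the highest for Tap1 (0.84) and Nlrc5 (0.85).

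Most heavy chains outside the member list were lower in NECA as well. Of the 19 class I and class Ib genes listed 15 were tested, of which 13 were lower and 2 higher in NECA, with a median log2 fold change of -0.50 (-0.55 without NECA 2), and 0 passed the edgeR test. H2-T23, which encodes Qa-1, was at 202, 174 and 292 CPM in NECA and 322, 396 and 368 CPM in DMSO without overlap (-0.70, SE 0.23). H2-T24 (-0.88, SE 0.34, and -0.55 without NECA 2) and H2-K2 (-1.06, SE 0.49) did not overlap either, whereas H2-Bl did (-1.02, SE 0.52, and -0.64 without NECA 2). H2-K2 was at 3.04, 2.79 and 3.16 CPM in NECA and 3.74, 11.6 and 3.44 CPM in DMSO, so that DMSO 2 alone stood high. In H2-Bl too DMSO 2 stood high, at 24.7 CPM against 8.54 and 11.25 CPM in DMSO 1 and 3. Only 3 of the 15 did not overlap, where 7.16% of all tested genes lay lower without overlap. H2-Q2, the highest on the list by mean CPM, was at 788, 165.5 and 838 CPM in NECA and 882.5, 926 and 828 CPM in DMSO. Its fold of -0.56 (SE 0.52) was -0.11 without NECA 2. H2-Q1 (-0.32) and H2-T3 (-0.41) also overlapped, and were at 0.0505 and -0.17 without NECA 2. Reads of these genes may be split among near-identical copies.

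The other partners of B2m had overlapping groups. All 4 tested had negative log2 fold changes, with a median of -0.38 (-0.23 without NECA 2), and 0 passed the edgeR test. Fcgrt was at 7454, 357 and 7832 CPM in NECA and 7077, 9094 and 8278 CPM in DMSO, so that NECA 2 alone stood low, and its log2 fold change of -0.64 (SE 0.88) was -0.088 without NECA 2. In NECA 1 and NECA 3 Fcgrt lay within the DMSO range while B2m lay below it. Hfe (-0.46, SE 0.25), the iron regulator, Mr1 (-0.29, SE 0.23) and Cd1d1 (-0.22, SE 0.28), which present vitamin metabolites and lipids, all overlapped. Without NECA 2 these folds were -0.26, -0.19 and -0.34.

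With all libraries, most general loading genes and constitutive proteasome subunits had positive log2 fold changes, and these were smaller without NECA 2. Of 14 other loading and trimming genes 13 were higher in NECA (median 0.32), and the chaperone Calr was at 671, 1213 and 777 CPM in NECA and 536, 450 and 766 CPM in DMSO (0.60, SE 0.31). Lap3 (0.52, SE 0.23) and Thop1 (0.74, SE 0.34), which trim peptides, and the translocon subunit Sec61a1 (0.40, SE 0.24) also overlapped. Without NECA 2 the folds of Calr, Lap3, Thop1 and Sec61a1 were 0.31, 0.34, 0.22 and 0.24, the median was 0.11, and 3 of the 14 were lower. Of 16 constitutive proteasome genes 14 were higher (median 0.12). Without NECA 2 the median was 0.039 and 7 of the 16 were lower. The named ones with all libraries were Psmb6 (0.13, SE 0.15), Psmb7 (0.20, SE 0.18), Psma3 (0.32, SE 0.18), Psma7 (0.21, SE 0.19) and the activator Psme3 (0.34, SE 0.19). Without NECA 2 these 5 were at 0.069, 0.10, 0.15, 0.051 and 0.14. The interferon-induced Psmb10 (-0.25, SE 0.20), Psme1 (-0.16, SE 0.16) and Psme2 (-0.13, SE 0.26) were lower and the assembly factor Pomp was at 0.036 (SE 0.18), with 0 genes of these lists past the edgeR test. Without NECA 2 these 4 were at -0.41, -0.18, -0.33 and -0.054.

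The genes whose profiles lay closest to the mean profile of the 10 members, among 9699 named genes with at least 10 CPM, were Zbp1 (root mean square difference 0.124), Rsad2 (0.125), Limd2 (0.131), Usp18 (0.132) and Cd52 (0.147). Those closest to Ubd were Gatm (0.405), Ighm (0.443), Cyp4v3 (0.669), Ifit2 (0.709) and Ifi44 (0.738), all at a greater distance. Ighm, the heavy chain of IgM, was at 6.66, 12.3 and 10.62 CPM in NECA and 30.2, 38.7 and 15.8 CPM in DMSO, which is the order of libraries seen for Ubd.

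Markers of MHC class II, macrophages, blood endothelium and smooth muscle were also lower in NECA by fitted fold change, whereas most epithelial markers were higher. MHC class II genes (9 of 9 detected) summed to 410, 501 and 509 CPM in NECA and 679, 525 and 740 CPM in DMSO, so the sums did not overlap. All 9 had negative log2 fold changes, with a median of -0.46. In 2 of the 9, H2-Eb1 and H2-Ob, NECA lay below DMSO without overlap, as in 7.16% of all tested genes. DESeq2 without NECA 2 called H2-Ob. Macrophage and monocyte markers (12 of 12) summed to 702, 334 and 706 CPM in NECA and 714, 614 and 793 CPM in DMSO, with overlap, and Csf1r was the largest part of the sum in each library. All 11 tested macrophage markers had negative log2 fold changes, with a median of -0.52 (-0.32 without NECA 2, with 10 of 11 lower). Of these Cx3cr1, Cd68 and Mrc1 lay lower in NECA without overlap, as did 7.16% of all tested genes. Blood endothelium (6 of 6) summed to 245 to 457 CPM in NECA and 350 to 502 CPM in DMSO, and smooth muscle (6 of 6) to 2522 to 2749 CPM in NECA and 2264 to 5713 CPM in DMSO. All 6 smooth muscle genes had negative log2 fold changes (median -0.49), as had all 6 endothelial ones (median -0.23, and -0.0013 without NECA 2). The 5713 CPM were in DMSO 2, the highest library for B2m, H2-K1, H2-D1, Tap2, Tapbp, Psmb8 and Ubd. No marker of these 4 lists was at 0 in any library. Their part in the differences of the members was not tested.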

How the data were processed

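RNA of 6 intestine libraries (3 NECA, 3 DMSO) was measured after SMARTer cDNA synthesis, PCR amplification, fragmentation and paired-end sequencing, per the labels' protocols. The authors deposited a raw whole-number count and an FPKM value per gene, per the file headers. The submitters' processing notes name HISAT, StringTie and edgeR and the builds mm10 and GRCm38. Neither tool versions, nor the strand setting, nor how multi-mapping reads were counted is stated in the labels or headers. The labels name PCR amplification and no molecular identifiers, so counting limits cover counting error only.

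Counts were filtered with filterByExpr (minimum count 10, minimum total 15), scaled by TMM and tested with edgeR 4.0.16 (glmQLFit and glmQLFTest, R 4.3.3), NECA against DMSO without covariates. P-values are two-sided and Benjamini-Hochberg adjusted over 15847 genes, with a threshold of 0.05. Each SE is the absolute log2 fold change divided by the root of the F value. DESeq2 1.42.0, another scaling, other filters, a replicate block and each library left out were alternatives, and the fits were tested on simulated data. The labels do not say that replicate numbers pair libraries, so the numbers were not used as pairs. With 3 libraries per group, the correlations of their deviations given below cannot exclude pairing. Replicates of a group differed beyond counting noise.

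Members, lists and most tests were chosen with earlier results of these data known. Named genes were all members, up to 4 genes of each pathway list by edgeR p, 13 fixed pathway genes and the 5 closest profiles. The heavy chains H2-Q2, H2-Q1 and H2-T3 and the inhibitor Socs1 were named in addition. Some genes that the rule names are not reported here. Gene coordinates are from GENCODE M21 (54495 of 54532 identifiers found) and promoters from RefSeq (8 of 10 members matched).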

Additional observations from a re-analysis of the deposited data

How the results depend on the processing

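The number of genes called was 0 in the edgeR fit, 2 without the filter on low counts, 11 with DESeq2 and 30 with DESeq2 without NECA replicate 2, the last added after seeing the data. Members lower in NECA numbered 7 to 10 and the median of the members was -0.61 to -0.40 when 1 library was left out. Tap1 changed sign with a filter at 5 CPM (-0.0176), with the replicate block (-0.25), without DMSO replicates 1 (-0.064) and 2 (-0.037), and without NECA replicate 2 by edgeR (-0.72) and DESeq2 (-0.71). Leaving out 1 NECA library at a time, Tap1 ran up to 0.37 (without replicate 1) and down to -0.72, Psmb9 down to -0.62 and Nlrc5 down to -1.04 (both without replicate 2). Nlrc5 was positive without NECA replicate 1 (0.35), NECA replicate 3 (0.12) and DMSO replicate 3 (0.0195), and Psmb9 without NECA replicate 1 (0.050). The causes were not tested. With raw counts in place of FPKM the difference in share was -13.2 points for Psmb8 and -5.68 for Psmb10, and -6.06 for Psmb10 with principal transcript lengths, a setting added after seeing the data. Leaving out 1 library gave -12.0 to -9.10 points for Psmb8, -8.54 to -2.22 for Psmb9 and -4.37 to -2.24 for Psmb10.

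The labels do not say that equal replicate numbers mark paired samples, and deviations of same-numbered libraries correlated at 0.0378, -0.19 and -0.0481. With the replicate block edgeR called 0 genes, and 10 members were lower with a median of -0.52. Low counts of Nlrc5 and Ubd, with 54 and 13 in NECA 1, limit what their folds can show.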
